A study of Arabidopsis thaliana with 24 samples.

Results

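The response of wild-type (Col) roots of Arabidopsis thaliana to 3 days without available iron was measured on 6 Affymetrix ATH1 arrays, taken by their sample titles from a series of 24 arrays. The 3 arrays on medium without available iron (-Fe) were set against the 3 arrays on medium with iron (+Fe). All 6 came from ecotype Col of wild-type genotype, grown at 21 °C in continuous light and 13 days old at harvest. The treatment began at 10 days. Plants on +Fe received FeEDTA at 40 µM, and those on -Fe a pyridyl-diphenyl-triazine sulfonate (ferrozine), which binds ferrous iron, at 100 µM. The -Fe group is thus defined by a chelator. The rest of the series holds Col leaves and the roots and leaves of the double mutant rglg1 rglg2, 3 arrays per tissue, genotype and medium. Whole roots were sampled, so fewer cells of a type and less RNA per cell cannot be told apart. The labels call the arrays biological replicates and do not say how plants were pooled. The p-values therefore measure the spread between arrays. For Col roots this spread was estimated over the 12 root arrays of both genotypes.

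Plants take up iron through the root epidermis. Arabidopsis acidifies the rhizosphere, reduces ferric iron at the root surface and imports ferrous iron, and it also secretes coumarins, phenolic compounds that dissolve and reduce iron outside the root. Basic helix-loop-helix (bHLH) transcription factors drive this programme, small IRONMAN (IMA) peptides promote it, and ubiquitin ligases of the BRUTUS family (BTS, BTSL1, BTSL2) restrain it.

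Each value is a log2 signal of a probe set relative to its median over the 24 arrays, so it gives differences between arrays and no level that can be set against another gene. Across probe sets, arrays of the same medium correlated at r = 0.933 to 0.972 and arrays of different media at 0.889 to 0.926. The values are centred over root and leaf arrays together, so these correlations also carry the difference between the tissues. The root-hair expansin gene EXPA7, the 1 measured member of 22 root tissue markers, read 2.07 to 2.46 in the 6 Col root arrays and -2.91 to -2.35 in the 6 Col leaf arrays. The 5′ minus 3′ difference of 6 pairs of control probe sets, used to compare RNA quality between arrays, was 0.20 ± 0.10 (SD, n = 3) on +Fe and 0.18 ± 0.10 on -Fe. As each probe set is centred on its own median, this difference is no absolute measure of RNA quality.

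A probe set was called at a limma adjusted p under 0.05, with no minimum fold. In Col roots 921 of 17810 probe sets were called (5.17%), of which 392 rose (2.2%) and 529 fell (2.97%). The median log2 change was 0.68 for the rises, -0.58 for the falls and 0.01 for all probe sets. Falls outnumbered rises among all calls, but at a log2 change of at least 1 there were 105 rises and 55 falls. At 2 or more there were 43 rises and 4 falls, and at 3 or more 21 rises and 1 fall. Of the called probe sets 445 had a single named gene (4.51% of 9869 such probe sets), 201 of them higher and 244 lower. The 3 arrays of each medium did not overlap for 392 of the 392 rises and 528 of the 529 falls, while 20.3% of all probe sets showed such a separation in either direction. Leaving out -Fe replicate 2 lowered the number of calls to 612, with 306 rises and 306 falls. Without +Fe replicate 2 there were 367 rises and 354 falls, so the excess of falls depended on these arrays.

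**Figure D1:**
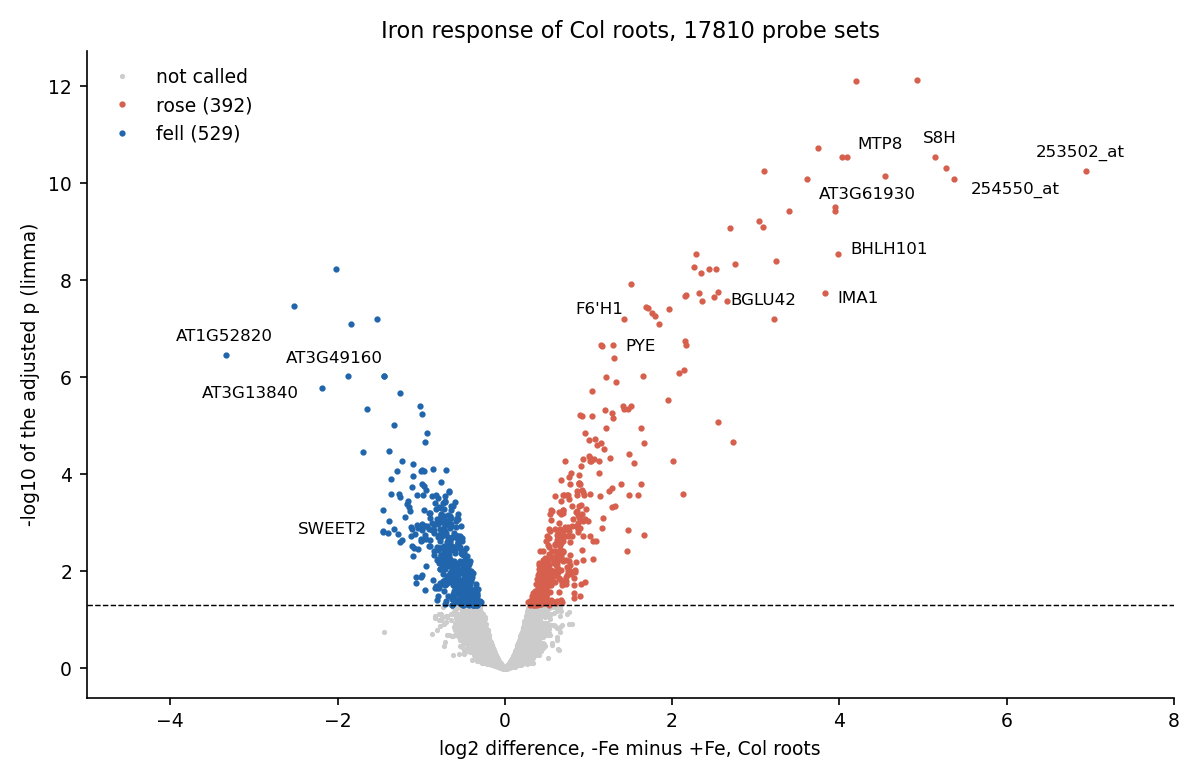
Iron response of Col roots. Each point is 1 of 17810 probe sets, with the log2 difference (-Fe minus +Fe, 3 arrays each) on the x axis and -log10 of the limma adjusted p on the y axis; the dashed line marks an adjusted p of 0.05. The 392 rises reach a log2 change of 6.95 and the 529 falls reach -3.33.

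The regulators of iron uptake are described first among the gene groups, an order that is no ranking. Of 11 measured iron regulators 5 rose, 0 fell and 6 were not called, and their median log2 change was 0.23. The counts of this and the later lists stand beside 2.2% of all probe sets that rose and 2.97% that fell. BHLH101 encodes a bHLH factor of subgroup Ib, which pairs with FIT, the main activator of iron uptake. It read -1.13, -1.71 and -1.84 on +Fe and 2.14, 2.81 and 2.32 on -Fe. All the -Fe arrays lay far above the +Fe arrays, and the difference was 15.8-fold, a log2 change of 3.98 ± 0.18 (SE, adjusted p = 2.79e-09).

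IMA1 encodes an IRONMAN peptide. Its 3 arrays read -2.55, -2.67 and -2.01 on +Fe and 1.42, 1.72 and 1.12 on -Fe. The media were again widely apart, by 14.2-fold (log2 3.83 ± 0.21, adjusted p = 1.8e-08). PYE, a bHLH repressor of iron distribution and storage genes, read -0.67, -0.82 and -0.71 on +Fe and 0.59, 0.59 and 0.50 on -Fe. Its arrays were the tightest of the 3 genes, and the rise was smaller, 2.46-fold (log2 1.3 ± 0.09, adjusted p = 2.15e-07).

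The restraining ubiquitin ligases rose beside the activators. BTSL1 was covered by a pair of probe sets. The first, 262218_at, read 1.40, 1.49 and 1.02 on +Fe and 3.46, 3.64 and 3.31 on -Fe (log2 2.17 ± 0.12, adjusted p = 2e-08). The second, 262217_at, read 1.13, 1.51 and 0.35 on +Fe and 3.46, 3.43 and 2.51 on -Fe (log2 2.13 ± 0.28, adjusted p = 0.000254). Both probe sets gave the same size of rise, with replicate 3 low in both media on the second one. BTSL2 rose by 1.19 ± 0.12 (adjusted p = 3.06e-05).

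Upstream factors of the cascade did not pass the test. The bHLH factors of subgroup IVc, which activate the subgroup Ib genes, had log2 changes of 0.23 ± 0.08 for BHLH115 (adjusted p = 0.119), 0.22 ± 0.08 for ILR3 (0.155), 0.09 ± 0.08 for BHLH104 (0.655) and -0.01 ± 0.14 for BHLH34 (0.991). BHLH121, their partner, stood at 0.01 ± 0.11, and EIN3, an ethylene-response factor known to stabilise FIT, at 0.06 ± 0.10. BHLH115 and ILR3 had all 3 -Fe arrays above the +Fe arrays, a pattern that 10.2% of all probe sets showed in this direction.

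Genes of coumarin synthesis and release made up the next group. Of 6 measured members 3 rose and 1 fell, with a median log2 change of 0.96. F6'H1, which makes the precursor of scopoletin, read 0.49, 0.55 and 0.46 on +Fe and 2.1, 2.36 and 2.13 on -Fe. The arrays of each medium were close to each other, and the rise was 3.23-fold (log2 1.69 ± 0.10, adjusted p = 3.59e-08). S8H hydroxylates scopoletin to fraxetin. It read -0.32, -0.28 and 0.04 on +Fe and 4.58, 5.34 and 4.97 on -Fe. No named gene rose more than S8H, at 35.5-fold (log2 5.15 ± 0.16, adjusted p = 2.87e-11).

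BGLU42, a beta-glucosidase that frees coumarins from their glucosides before secretion, read -0.26, -0.39 and -0.12 on +Fe and 1.93, 2.62 and 2.19 on -Fe. Its rise was 5.67-fold (log2 2.50 ± 0.14, adjusted p = 2.21e-08). CCOAMT, a gene of the caffeoyl-CoA O-methyltransferase family, went the other way. It read -0.56, -0.19 and -0.59 on +Fe and -1.71, -1.58 and -1.13 on -Fe (log2 -1.03 ± 0.16, adjusted p = 0.00124). COSY, which closes the coumarin ring, had overlapping arrays (0.22 ± 0.13, adjusted p = 0.404), as had F6'H2, the second 6'-hydroxylase (-0.10 ± 0.14, adjusted p = 0.794).

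Of 5 measured phenylpropanoid and monolignol genes 2 rose, with a median log2 change of 0.15. UGT72E1, a glucosyltransferase of monolignols and their aldehydes, read 0.01, 0.15 and -0.11 on +Fe and 2.69, 2.53 and 2.48 on -Fe. It rose 5.84-fold (log2 2.55 ± 0.14, adjusted p = 1.71e-08). Its relatives UGT72E2 (-0.02 ± 0.10) and UGT72E3 (-0.20 ± 0.15) were not called. HCT, an enzyme early in the monolignol path that acts through shikimate esters, rose by 0.46 ± 0.08 (adjusted p = 0.00387), a call lost with all 24 arrays in 1 fit (0.0802). CCR2, a cinnamoyl-CoA reductase, stood at 0.15 ± 0.13 (adjusted p = 0.609).

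**Figure D2:**
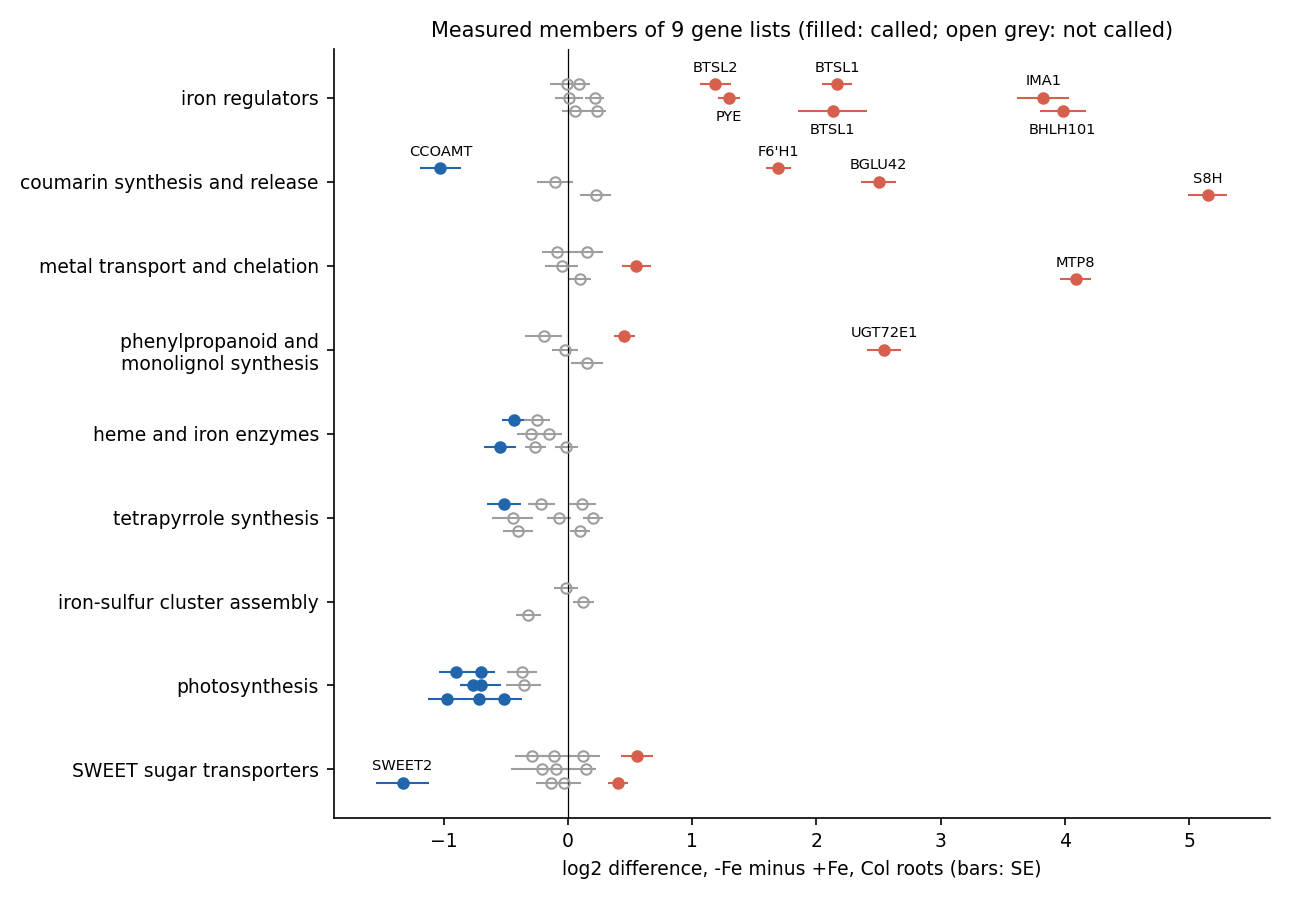
Log2 difference (-Fe minus +Fe, x axis) of each measured member of 9 gene lists (rows) in Col roots, with the moderated SE as a bar. Red points rose, blue points fell and open grey points were not called; BTSL1 has a pair of probe sets. The measured iron regulators lie either near 0 or above 1, and the called photosynthesis genes lie between -0.97 and -0.51.

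Metal transport was represented by 6 measured genes, of which 2 rose and 0 fell, with a median of 0.12. MTP8, a vacuolar transporter of manganese that limits manganese toxicity during iron shortage, read 0.55, 0.24 and 0.24 on +Fe and 4.48, 4.55 and 4.26 on -Fe. Its values hardly spread within either medium, and the rise was 17-fold (log2 4.09 ± 0.12, adjusted p = 2.87e-11). ZIP9, of the ZIP family of metal importers, rose by 0.55 ± 0.11 (adjusted p = 0.00917), a call lost with all 24 arrays in 1 fit (0.152). The mitochondrial iron importers MIT1 (0.15 ± 0.13) and MIT2 (0.10 ± 0.09) were not called. Nor were VTL3 (-0.05 ± 0.13) and VTL4 (-0.09 ± 0.12), homologues of the vacuolar iron transporter VIT1. None of the 11 genes of the iron uptake list, such as IRT1 and FRO2, had a probe set naming it alone. The same held for the 4 ferritin genes, so neither set was analysed here by name. As 7588 of the tested probe sets had no named gene, these genes may be among the unnamed probe sets.

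A list of 20 genes often reported as raised by iron deficiency had 7 measured members. All 7 rose, with a median of 3.40. The members of this list were picked because earlier studies found them raised, so the count is a check of the treatment. It shares BHLH101, IMA1 and PYE with the regulators and UGT72E1 with the phenylpropanoid genes. The other three were AT3G07720, AT1G73120 and AT5G05250. AT3G07720, a kelch-repeat gene, read -0.01, 0.01 and -0.01 on +Fe and 3.58, 3.88 and 3.76 on -Fe (log2 3.74 ± 0.11, adjusted p = 1.83e-11). AT1G73120 rose by 3.40 ± 0.13 and AT5G05250 by 2.16 ± 0.15. Both had no overlap between the media, as had all 392 rises.

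The 20 named genes that rose most spanned log2 changes from 2.15 to 5.15, and 10 of them lay outside the lists of regulators, coumarins, metals, phenylpropanoids and often reported genes. All 20 were chosen among called genes without overlap between the media, so the lack of overlap is no further support. AT3G61930 read 0.17, -0.22 and 0.05 on +Fe and 4.41, 4.69 and 4.54 on -Fe, second among named genes (23.4-fold, log2 4.55 ± 0.15, adjusted p = 7e-11). AT4G19370 rose by 3.61 ± 0.12. ATPMEPCRB (AT4G02330), a pectin methylesterase that alters the cell wall, read -2.19, -2.0 and -2.66 on +Fe and 0.98, 1.21 and 0.68 on -Fe. It rose 9.47-fold (log2 3.24 ± 0.15, adjusted p = 3.94e-09), with no overlap between the media.

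AT5G38820, of the amino acid transporter family, rose by 3.1 ± 0.10, and AT5G04730, of the ankyrin-repeat family, by 2.69 ± 0.11. AT4G10510, of the subtilase protease family, rose by 2.32 ± 0.13 and the RING-finger gene AT4G09110 by 2.15 ± 0.12. FOLB1 encodes a dihydroneopterin aldolase of folate synthesis. It read -1.92, -2.07 and -2.54 on +Fe and -0.28, 0.09 and 0.10 on -Fe, and the 4.43-fold rise left a clear gap between the media (log2 2.15 ± 0.16, adjusted p = 7.01e-07). AT1G49000 (2.28 ± 0.11) and AT3G06890 (2.26 ± 0.11) rose with SDs of at most 0.15 within a medium. All 20 calls held with each of the 6 Col root arrays left out in turn.

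Probe sets without a single named gene included the largest rises of all. Probe set 253502_at read 0.34, 0.33 and 0.35 on +Fe and 7.18, 7.81 and 6.87 on -Fe, a log2 change of 6.95 ± 0.23 (adjusted p = 5.53e-11). Probe set 254550_at rose by 5.37 ± 0.19 (adjusted p = 8.02e-11). Their genes are not named in the tables used here.

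**Figure D3:**
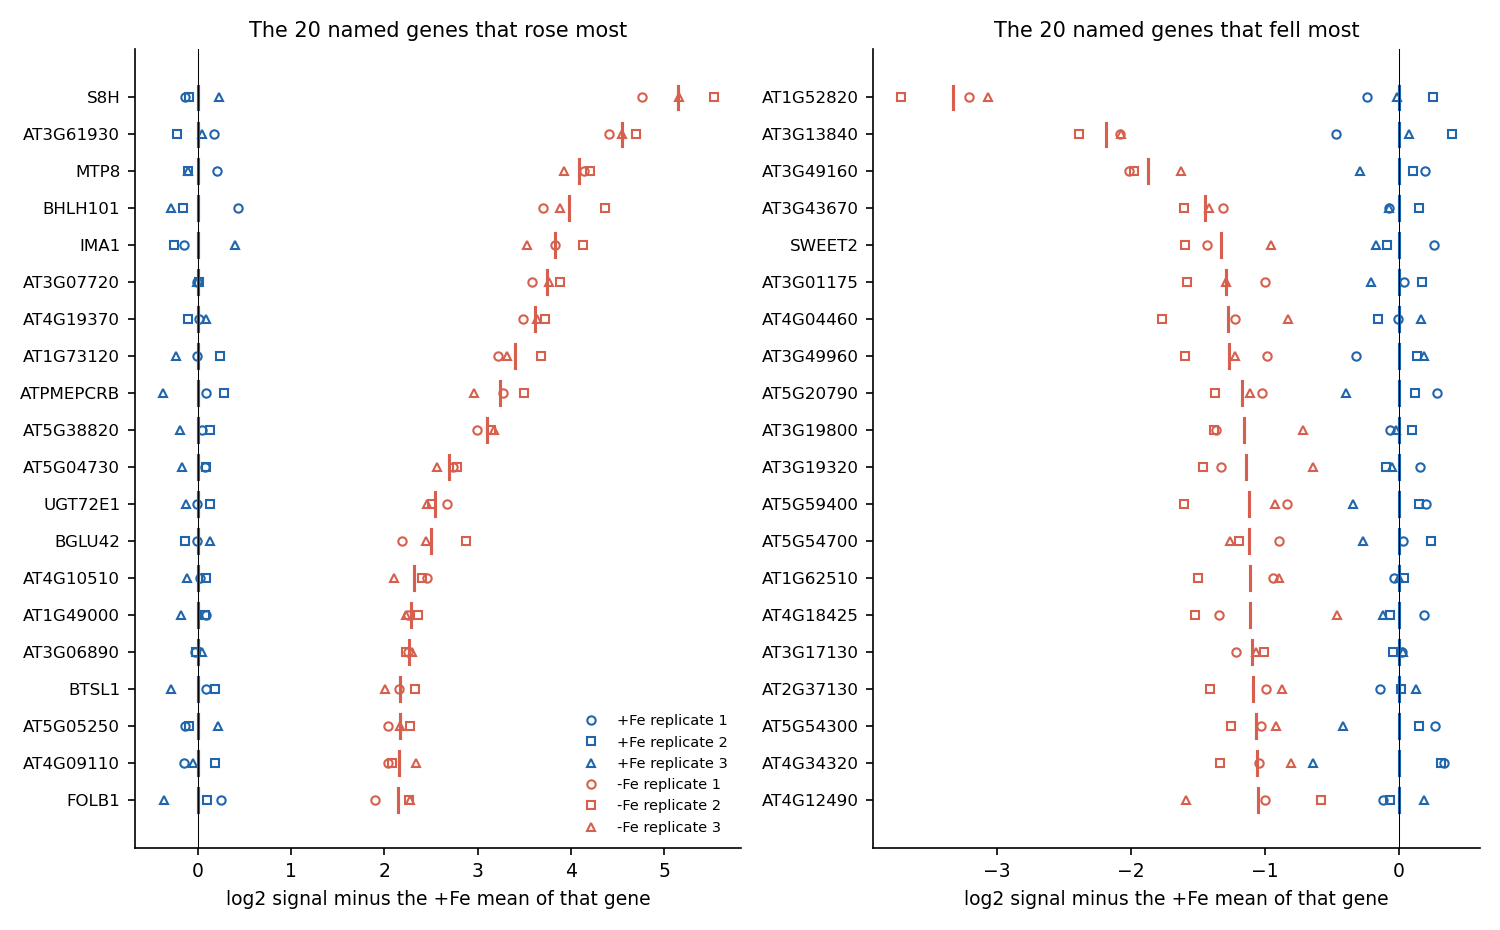
Values of the 20 named genes that rose most (left) and the 20 that fell most (right) in each of the 6 Col root arrays, as log2 signal minus that gene's +Fe mean (x axis). Symbols mark the replicate, colours the medium (blue +Fe, red -Fe) and vertical bars the means. The media do not overlap for any of the 40 genes, which was a condition of their choice, and -Fe replicate 2 (squares) is farthest from +Fe for 14 of the rises and 16 of the falls.

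Among the falls, large changes were rarer. The 20 named genes that fell most ranged in log2 change from -3.33 to -1.06. They too were chosen among called genes without overlap between the media. AT1G52820, of the family of 2-oxoglutarate-dependent dioxygenases, read 3.83, 4.32 and 4.05 on +Fe and 0.85, 0.35 and 1.0 on -Fe. It was 10.1-fold lower on -Fe (log2 -3.33 ± 0.24, adjusted p = 3.48e-07), the 1 fall beyond a log2 change of 3. AT3G13840, of the GRAS family of transcription regulators, read 1.82, 2.69 and 2.37 on +Fe and 0.21, -0.09 and 0.22 on -Fe. The +Fe arrays spread widely, yet stayed above the -Fe arrays (log2 -2.18 ± 0.18, adjusted p = 1.64e-06).

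AT3G49160, of the pyruvate kinase family, read 1.42, 1.33 and 0.94 on +Fe and -0.78, -0.74 and -0.40 on -Fe (log2 -1.87 ± 0.14, adjusted p = 9.21e-07). AT3G43670, of the copper amine oxidase family, fell by 1.45 ± 0.11. Among them were also a pair of class III peroxidase genes, enzymes that carry heme and act in the cell wall. AT3G49960 read 3.29, 3.74 and 3.80 on +Fe and 2.63, 2.01 and 2.39 on -Fe (log2 -1.27 ± 0.16, adjusted p = 0.000249). AT2G37130 fell by 1.09 ± 0.13 (adjusted p = 0.000109). Both peroxidases kept the media apart in all 6 arrays, which was a condition of their choice.

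Other large falls were those of AT4G04460, of the aspartyl protease family (-1.27 ± 0.21), AT3G17130, of the pectin methylesterase inhibitor family (-1.10 ± 0.12), and AT1G62510, of the lipid-transfer protein family (-1.11 ± 0.14). The calls of 19 of the 20 genes held with each Col root array left out in turn. The other one, AT4G34320 (-1.06 ± 0.24), read 2.00, 1.98 and 1.02 on +Fe and 0.62, 0.33 and 0.86 on -Fe. Its call was lost without +Fe replicates 1 or 2 or -Fe replicate 2 (adjusted p up to 0.0939). Among probe sets without a single named gene, 267626_at fell by 2.52 ± 0.15 and 251109_at by 2.02 ± 0.10.

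SWEET genes encode sugar exporters and tonoplast sugar carriers, and 11 were measured. Of these 2 rose, 1 fell and 8 were not called, with a median log2 change of -0.10, where 2.2% of all probe sets rose and 2.97% fell. SWEET2, a tonoplast sugar transporter of roots, read 1.5, 1.15 and 1.07 on +Fe and -0.20, -0.36 and 0.28 on -Fe. The gap between the media was wider than the spread within either, and the gene was 2.51-fold lower on -Fe (log2 -1.33 ± 0.21, adjusted p = 0.00136). SWEET17, a tonoplast fructose carrier, rose by 0.41 ± 0.08 (adjusted p = 0.00751; 0.0555 with only the 6 Col root arrays in the fit). Its relative SWEET16 rose by 0.55 ± 0.13 (adjusted p = 0.0191), a call lost without +Fe replicates 1 or 3 or -Fe replicates 1 or 3 (adjusted p up to 0.101) and with only the 6 arrays (0.108).

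Genes of photosynthesis fell in these roots. Of 9 measured members 7 fell, 0 rose and 2 were not called, with a median of -0.70, where 2.97% of all probe sets fell. RCA, the activase of Rubisco, read -2.05, -1.74 and -1.89 on +Fe and -2.86, -3.05 and -2.69 on -Fe. The media were well apart, and RCA was 1.96-fold lower on -Fe (log2 -0.97 ± 0.15, adjusted p = 0.00117). PSAN, a subunit of photosystem I, fell by 0.90 ± 0.13, PSBY of photosystem II by 0.76 ± 0.11, the Calvin cycle enzyme gene SBPASE by 0.72 ± 0.14, and PSBW of photosystem II by 0.70 ± 0.12.

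The calls of LHCB4.2 (-0.70 ± 0.16) and PSAE1 (-0.51 ± 0.14) were lost with single arrays left out (adjusted p up to 0.0879 and 0.211). Both were lost without +Fe replicate 2 or -Fe replicates 1 or 2, and PSAE1 also without +Fe replicates 1 or 3. LHCB4.1 (-0.37 ± 0.12, adjusted p = 0.0973) and PRK (-0.36 ± 0.14, adjusted p = 0.207) were not called. The same list marks green tissue. Its mean over the 9 genes read -2.35 to -2.11 in the 3 +Fe arrays and -3.13 to -2.72 in the 3 -Fe arrays, against 2.23 to 2.62 in the 6 Col leaf arrays. The part of green tissue in the root samples in this result was not tested.

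Among the 104 called probe sets that carry a gene symbol (41 rose, 63 fell) were more genes of plastid proteins that fell. They were named after their values were seen, and no list of plastid proteins was fixed, so they have no share of a measured total. Only falls were picked, so these genes give no direction for plastid proteins as a group. CaS, a thylakoid calcium-sensing protein, fell by 0.96 ± 0.14 (adjusted p = 0.000533), ATPC1, a subunit of the plastid ATP synthase, by 0.79 ± 0.14, TROL, an anchor of a ferredoxin reductase in the thylakoid, by 0.65 ± 0.10, and PSB27, a photosystem II assembly factor, by 0.62 ± 0.09. LIL3:2, which tethers chlorophyll synthesis enzymes, fell by 0.57 ± 0.09. Others had calls that depended on single arrays. NdhS (-0.64 ± 0.16), of the plastid NDH complex, and FUG1 (-0.38 ± 0.09), a plastid translation factor, each lost the call with 5 of the 6 Col root arrays left out in turn, and AOR (-0.44 ± 0.12), a plastid reductase, with 3 of them (adjusted p up to 0.146, 0.121 and 0.185). Of 67 named probe sets of the plastid genome 0 rose and 1 fell, namely psbH (-0.72 ± 0.16, adjusted p = 0.0154). That call was lost without +Fe replicates 1 or 2 or -Fe replicates 2 or 3 (adjusted p up to 0.0659).

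Other iron proteins formed the next lists. Of 7 measured heme and iron enzymes 0 rose and 2 fell, with a median of -0.26, where 2.97% of all probe sets fell. SAPX, a stromal and mitochondrial ascorbate peroxidase, stood at -0.55 ± 0.13 (adjusted p = 0.025) and SDH2-1, the iron-sulfur subunit of succinate dehydrogenase, at -0.43 ± 0.10 (adjusted p = 0.0201). Both calls were lost without -Fe replicates 1 or 2. SAPX was also lost without +Fe replicate 3, and SDH2-1 without +Fe replicates 1 or 2 (adjusted p up to 0.12 and 0.0855). SDH2-2 (-0.26 ± 0.08, adjusted p = 0.0909), CYTC-2 (-0.29 ± 0.12, adjusted p = 0.211) and SIR, sulfite reductase (-0.25 ± 0.11, adjusted p = 0.246), were below +Fe in all arrays and were not called. In this direction 10.1% of all probe sets showed such a separation.

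Of 3 genes of iron-sulfur cluster assembly 0 were called. The largest change was that of HCF101, at -0.32 ± 0.10 (adjusted p = 0.0893). Of 8 tetrapyrrole genes 0 rose and 1 fell, with a median of -0.14. That gene, CHLI2, a subunit of magnesium chelatase, stood at -0.52 ± 0.14 (adjusted p = 0.0432), and its call was lost without any 1 of the 3 +Fe arrays or -Fe replicates 1 or 2 (adjusted p up to 0.127). CHLM, the methyltransferase of magnesium protoporphyrin, and PORB, a protochlorophyllide reductase, were not called, at -0.40 and -0.44. CHLM was called as lower when -Fe replicate 3 was left out (-0.49 ± 0.13, adjusted p = 0.0461). Both were called with a replicate block shared by all groups (0.0238 and 0.0276), a block within genotype (0.0332 and 0.0369) or array weights (0.044 and 0.0448), and the number of falls ranged from 0 to 3 over the alternatives. Of 2 measured copper genes CCS, the copper chaperone of superoxide dismutase, rose by 0.41 ± 0.09 (adjusted p = 0.0184). Its call was lost without +Fe replicate 2 or -Fe replicates 2 or 3 (adjusted p up to 0.063).

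Root hairs widen the absorbing surface. None of the 3 measured genes of the root hair and epidermis list was called. EXPA7 stood at -0.01 ± 0.11 and EXPA18, another root-hair expansin, at 0.15 ± 0.13, with the media overlapping for both. TRY, a small MYB protein that favours root-hair fate, was at -0.26 ± 0.13 (adjusted p = 0.358). Of 9 expansin, XTH and cellulose synthase genes 1 rose and 1 fell, with a median of 0.15, where 5.17% of all probe sets were called. XTH20, an enzyme that remodels xyloglucan, read 1.55, 1.65 and 1.46 on +Fe and 2.13, 2.51 and 1.99 on -Fe (log2 0.66 ± 0.12, adjusted p = 0.0028). XTH19 was lower by 0.37 (SE 0.09, adjusted p = 0.0294), a call lost without +Fe replicates 1 or 3 or -Fe replicates 2 or 3 (adjusted p up to 0.105).

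Among the called symbol-bearing genes of the cell wall, EXPB2, a root-hair beta-expansin, fell by 0.79 ± 0.16 (adjusted p = 0.00673), GH9B13, of the endoglucanase family, by 0.59 ± 0.11, and TBL41, of a family that acetylates wall polymers, by 0.56 ± 0.10. PRX52, a class III peroxidase linked to lignin, went up. It read -1.71, -2.56 and -2.16 on +Fe and -0.66, -0.23 and -1.12 on -Fe (log2 1.47 ± 0.24, adjusted p = 0.0014). The arrays of each medium spread widely for PRX52 without meeting those of the other. With all 24 arrays in 1 fit the calls of PRX52, GH9B13 and TBL41 were lost (adjusted p = 0.101, 0.519 and 0.163).

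Grouped by symbol, a grouping added after the values were seen, 11 beta-glucosidase (BGLU) probe sets held 1 rise and 3 falls and 40 UDP-glycosyltransferase (UGT) probe sets 2 rises and 5 falls. Of all probe sets 2.2% rose and 2.97% fell. Among the UGT falls, UGT71C1 and UGT71C4 lost the call with each of the 6 Col root arrays left out in turn, and UGT76D1 with 3 of them. Beside BGLU42, BGLU46 (-0.67 ± 0.12) and BGLU45 (-0.72 ± 0.20), glucosidases of monolignol glucosides, fell. The call of BGLU45 was lost without +Fe replicate 2 or -Fe replicates 2 or 3 (adjusted p up to 0.188). BGLU45 and BGLU46 are neighbours of similar sequence, and how far a probe set of 1 reads the other was not tested. Among UGT genes UGT73D1 rose by 0.76 ± 0.12, and UGT84A3, which glucosylates hydroxycinnamic acids, fell by 0.72 ± 0.14 (adjusted p = 0.0048). The calls of UGT73D1, UGT84A3 and BGLU46 were lost with all 24 arrays in 1 fit (adjusted p = 0.198, 0.338 and 0.246).

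Among 16 cytochrome P450 probe sets, found by gene symbol or synonym, 1 rose and 3 fell, where 2.2% of all probe sets rose and 2.97% fell. P450 genes without such a name were not counted. CYP71B5 read -2.91, -2.62 and -2.73 on +Fe and -1.16, -0.18 and -0.88 on -Fe, a 4.04-fold rise (log2 2.02 ± 0.22, adjusted p = 5.34e-05). Its -Fe arrays spread more widely than the +Fe arrays, with no overlap. The other calls among these 16 were falls of at most 0.74 in log2, that of CYP718 (-0.74 ± 0.17, adjusted p = 0.016). The call of CYP718 was lost without +Fe replicate 2 or -Fe replicate 2 (adjusted p up to 0.0749). With single Col root arrays left out in turn, CYP71B6 lost the call in 5 of 6 cases and CYP71B23 in 4.

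Further called genes with symbols had roles in signalling, stress and metabolism. PUB23, a U-box ubiquitin ligase of immune and drought responses, rose by 1.51 ± 0.13 (adjusted p = 3.95e-06). NDB4, an alternative NADH dehydrogenase of mitochondria that works without the proton-pumping complex, rose by 0.97 ± 0.14 (adjusted p = 0.000816). WRKY22, a transcription factor of immune signalling, rose by 0.75 ± 0.10, and APS3, an ATP sulfurylase of sulfate assimilation, by 0.62 ± 0.13. LEA4-5, a late embryogenesis abundant protein that protects against drying, read 1.27, 1.11 and 0.94 on +Fe and 0.06, 0.01 and 0.13 on -Fe (log2 -1.03 ± 0.19, adjusted p = 0.00338). FDH, formate dehydrogenase, fell by 0.95 ± 0.15, and COR27, a cold-induced regulator of the clock, by 0.56 ± 0.10. Of these, WRKY22 and COR27 lost their calls with all 24 arrays in 1 fit (adjusted p = 0.184 and 0.49).

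Of 3 cold and dehydration genes 2 fell, both weakly, where 2.97% of all probe sets fell. COR15A stood at -0.43 ± 0.11 (adjusted p = 0.0318) and COR47 at -0.43 ± 0.10 (adjusted p = 0.0163). COR15A was lost without +Fe replicates 1 or 2 or -Fe replicates 1 or 3 (adjusted p up to 0.14), and COR47 without +Fe replicates 1 or 2 or -Fe replicate 2 (0.0907). Of 6 auxin genes 0 rose and 1 fell, the conjugating enzyme gene GH3.5 (-0.41 ± 0.11, adjusted p = 0.0395). That call was lost without +Fe replicates 1 or 2 or -Fe replicates 2 or 3 (adjusted p up to 0.182). The lateral root factors LBD16 (-0.20 ± 0.12) and LBD29 (-0.14 ± 0.17) were not called.

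The remaining lists with measured genes held no call. They were 3 common reference genes (-0.05 to 0.08 in log2), 2 of glycolysis, 1 of methionine salvage, 1 of ethylene and 1 of heat shock. The heat-shock gene HSP17.6C spread from 0.65 to 3.16 among the -Fe arrays (-0.62 ± 0.43, adjusted p = 0.528). It was called as lower without -Fe replicate 1 (-1.35 ± 0.24, adjusted p = 0.00422). Suberin genes, aquaporins and genes of nitrogen, sulfur, phosphate and potassium nutrition had no probe set naming them alone.

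Roots of rglg1 rglg2, which lack a pair of RING-domain ubiquitin ligases, gave a separate set of arrays on the same media. There 511 probe sets rose (2.87%) and 755 fell (4.24%). They shared 259 rises with Col roots, 66.1% of the Col rises and 50.7% of the mutant rises. The shared falls were also 259, 49% of the Col falls and 34.3% of the mutant falls. Both genotypes were tested in the same fit, so each probe set had the same SE in both. A small SE made a call easier in both genotypes, so calls shared between them are not independent. Of the 105 Col rises of at least 1 in log2, 104 were positive in the mutant and 97 called. Of the 55 Col falls of that size, 54 were negative and 38 called. The median change of these genes was 1.65 in Col and 1.45 in the mutant for the rises, and -1.23 and -0.80 for the falls; they were chosen on the Col values.

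The test of the difference between the root responses called 3 probe sets (0.0168%), with 1382 at an unadjusted p under 0.05. None of the 40 named genes above was among them. S8H changed by 5.15 in Col and 5.72 in the mutant, MTP8 by 4.09 and 4.37, BHLH101 by 3.98 and 3.20, and AT1G52820 by -3.33 and -2.51. AT1G65500 rose in Col, where it read -3.33, -2.72 and -2.68 on +Fe and -1.11, -1.01 and -1.83 on -Fe (log2 1.59 ± 0.21, adjusted p = 0.000266). In the mutant it changed by -0.91 (adjusted p = 0.0178), a difference of -2.50 ± 0.30 (adjusted p = 0.0118).

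AT3G46880 rose by 0.70 ± 0.13 in Col and changed by -0.61 in the mutant (difference -1.31 ± 0.18, adjusted p = 0.0376). AT4G15690, of the glutaredoxin family, changed by 0.68 ± 0.15 and -0.76 (difference -1.44 ± 0.21, adjusted p = 0.0496). These 3 calls depended on single arrays. Their number was 387 when +Fe replicate 3 of the mutant was left out. It was 0 when the array left out was its +Fe replicate 1, its +Fe replicate 2 or its -Fe replicate 3.

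Col leaves of the same plants' age and media responded with fewer calls, 91 rises (0.511%) and 93 falls (0.522%). These came from a separate fit of the leaf arrays, with other SEs than in roots. The SE of F6'H1 was 0.52 in leaves and 0.10 in roots, and that of S8H 0.12 and 0.16. The number of calls and their overlap therefore do not measure the size of the leaf response. Of the Col root rises 35 also rose in leaves (8.93% of the root rises, 38.5% of the leaf rises), and of the root falls 33 also fell (6.24% and 35.5%). The difference between the tissues was called for 311 probe sets (1.75%), 139 with the more positive response in leaves (0.78%) and 172 in roots (0.966%). It was 204 without Col root -Fe replicate 2. Among the 105 root rises of at least 1 in log2, 69 were called as less positive in leaves and 4 as more positive. Their median change in leaves was 0.20. Among the 55 root falls of that size, 21 were called as less negative in leaves and 8 as more negative.

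Several genes with large rises in roots stayed near 0 in leaves. S8H changed by -0.06 in leaves (difference leaf minus root -5.21 ± 0.21, adjusted p = 1.1e-12) and MTP8 by 0.04 (-4.04 ± 0.17, adjusted p = 1.21e-12). BGLU42 changed by -0.08 (-2.58 ± 0.19) and UGT72E1 by 0.24 (-2.30 ± 0.30). F6'H1 was an exception among the coumarin genes, with a change of 1.5 in leaves that was not called (adjusted p = 0.272) and no called difference (-0.19 ± 0.56). For AT1G52820 the fall in roots had a leaf change of 0.12 beside it (difference 3.45 ± 0.31, adjusted p = 2.77e-07).

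A pair of regulators rose more in leaves than in roots. BHLH101 rose by 6.24 in leaves against 3.98 in roots (difference 2.25 ± 0.38, adjusted p = 0.00117), and IMA1 by 5.96 against 3.83 (2.13 ± 0.45, adjusted p = 0.0114). The difference for IMA1 was not called after quantile normalization (adjusted p = 0.099). For PYE (1.95 in leaves, difference 0.66 ± 0.19, adjusted p = 0.0895) and BTSL2 (0.54 in leaves, difference -0.64 ± 0.24, adjusted p = 0.247) no difference was called. The probe sets of BTSL1 disagreed. By 262218_at the change in leaves was 2.25, as in roots (difference 0.08 ± 0.20, adjusted p = 0.934), whereas by 262217_at it was 0.72 (difference -1.41 ± 0.35, adjusted p = 0.0414).

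Large falls also split by tissue. AT3G49160 changed by -3.56 in leaves and -1.87 in roots (difference -1.68 ± 0.27, adjusted p = 0.000575), and AT3G43670 by -2.86 and -1.45 (-1.41 ± 0.17, adjusted p = 1.58e-05). SWEET2 stood at -0.05 in leaves (difference 1.28 ± 0.31, adjusted p = 0.0324) and RCA at -0.03 (0.94 ± 0.19, adjusted p = 0.0087). SAPX, weakly lower in roots, changed by -2.95 in leaves (difference -2.41 ± 0.26, adjusted p = 3.22e-06).

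**Figure D4:**
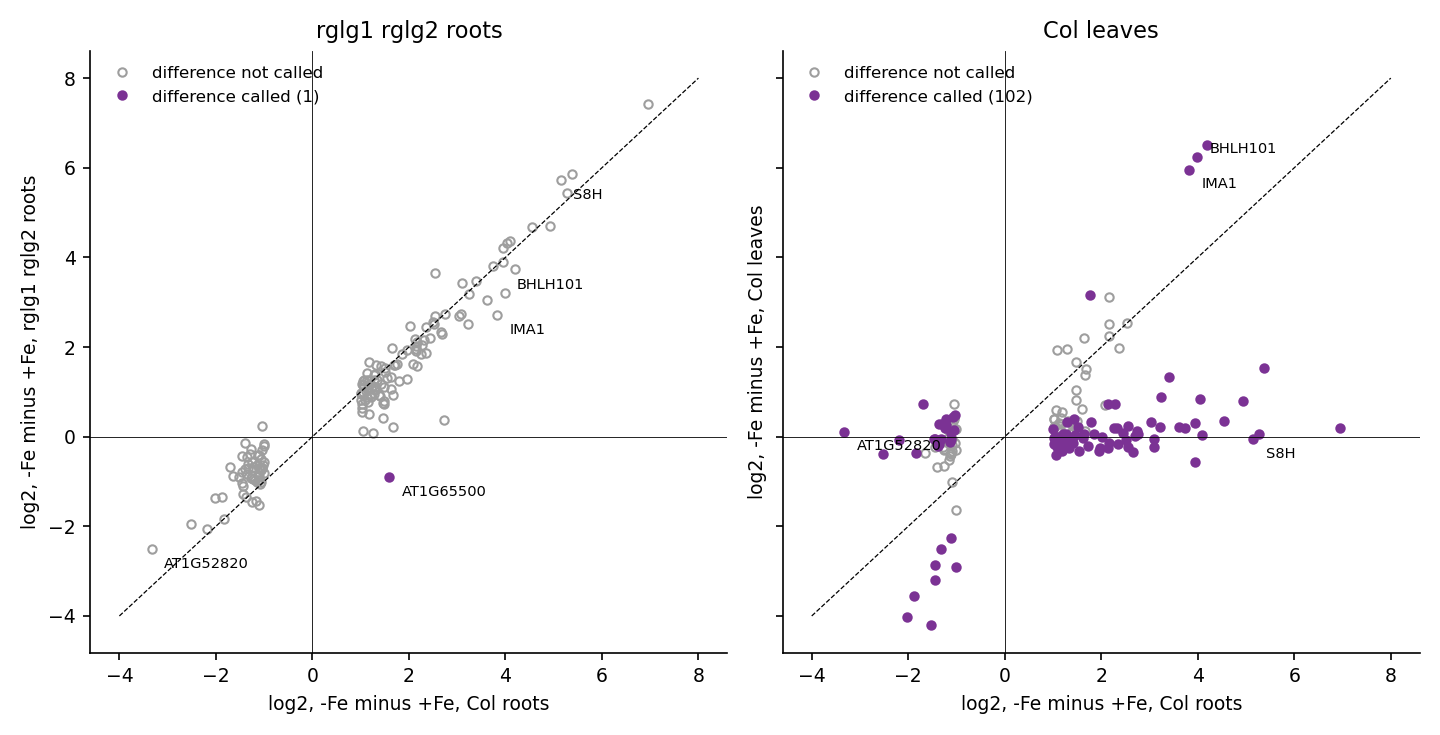
The 160 probe sets called in Col roots with a log2 change of at least 1 in either direction. Their change in Col roots (x axis) is set against their change in rglg1 rglg2 roots (left, y axis) and in Col leaves (right, y axis), all as log2 of -Fe minus +Fe; filled points differ between the responses at a limma adjusted p under 0.05 (1 on the left, 102 on the right) and the dashed line marks equal changes. In mutant roots most points lie near the line, and in leaves most root rises lie near 0, with BHLH101 and IMA1 above the line.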

How the data were processed

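Values came from the authors' deposited table of the series, on a log2 scale. The submitters' processing notes name RMA and give no version. The median of each probe set over the 24 arrays was 0 within 5e-07, and values ran from -5.76 to 7.86. How the 17854 probe sets were chosen is not given in the sources used here. Without the 44 controls, 17810 entered the tests. Of these, 9869 had 1 named gene, 353 several and 7588 none; 9822 of the 9869 matched the reference names (TAIR10.1, used for names only).

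The limma package (version 3.58.1, R 4.3.3) estimated 1 mean per group by lmFit and eBayes. Root contrasts used the 12 root arrays (8 residual degrees of freedom), the changes in leaves the leaf arrays alone, and the tissue difference all 24 (16). Tests were two-sided, with Benjamini-Hochberg adjustment over the 17810 probe sets. The steps were tested on simulated data with independent noise for each probe set and array. That noise had no part shared across an array, so the simulation gives no error rate for these data. Errors beside a log2 change are moderated standard errors, also in leaf or mutant differences. For arrays, their number limits the precision.

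The named genes are the 20 largest called rises and falls with a single named gene and no overlap between media, list members, at most 2 unnamed probe sets per direction, called genotype differences, and the 5 largest called tissue differences per direction. Called genes with symbols were added after their values were seen. The 26 lists hold 503 loci, of which 97 were measured, meaning that a probe set named the locus alone. Of these, 13 have list symbols that the reference lacks. A locus with several probe sets counts only if all are called the same way. The comparison, members and lists were chosen with earlier results of these data known. Same-numbered arrays of the media deviated together at r = 0.171, -0.0811 and 0.42, so the numbers were not taken as pairs.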

Additional observations from a re-analysis of the deposited data

Results flagged for a closer look

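The iron response of Col roots differed by a test of the difference itself in 3 genes against mutant roots and in 311 probe sets against Col leaves, of which the 5 largest differences per direction with a single named gene are given here. Against mutant roots, the response (mutant minus Col, log2) was lower by 2.50 in the mutant at AT1G65500 (a value of -2.50), with -1.44 at AT4G15690 and -1.31 at AT3G46880. Against Col leaves, the response (leaf minus root) was more positive in leaves at AT1G52820 (3.45), BHLH101 (2.25), IMA1 (2.13), AT3G13840 (2.1) and AT3G01175 (1.56). It was more negative in leaves at S8H (-5.21), AT3G61930 (-4.19), MTP8 (-4.04), AT3G07720 (-3.54) and AT4G19370 (-3.40). For BHLH101 and IMA1 both tissues rose and leaves rose more, and for AT1G52820, AT3G13840 and AT3G01175 roots fell while leaves changed by 0.12, -0.08 and 0.27. Groups of 3 arrays were not examined for outlying samples.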

How the results depend on the processing

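The 921 calls in Col roots became 1578 with array weights, 602 with only the 6 Col root arrays in the fit, 514 with all 24 arrays in 1 fit, 160 at a log2 change of at least 1, 519 at an adjusted p under 0.01 and 407 when only probe sets with a single named gene were tested. Leaving out single arrays gave 612 to 1108. The share of rises was 42.6%, and 35.4% after centring each array on its median. The 3 differences from mutant roots became 393 with array weights, 7 with a replicate block within genotype and 5 without both mutant root arrays numbered 3, an alternative chosen after seeing the data. Leaving out single arrays gave 0 to 387, with 6 when Col -Fe replicate 3 was left out, and 1 when it was Col -Fe replicate 1, -Fe replicate 2 of the mutant, or either of the Col +Fe arrays numbered 1 and 2. The 311 differences from Col leaves became 936 with array weights and 624 with a replicate block within genotype and tissue. Leaving out single arrays gave 204 to 309. A replicate block shared by all groups gave 934, 4 and 311 calls, and 1058 in Col roots within genotype. Each group holds replicates 1 to 3, so a block cannot change a log2 value or its direction here. For all counts above the cause of the change was not tested, apart from the stricter thresholds and the smaller number of probe sets or arrays. For the 141 named probe sets called in Col roots, 2534 values under alternatives kept the call in 2049 cases, lost it in 485 and turned direction in 0. Blocks, stricter thresholds, fewer probe sets and fits that add or drop arrays of other groups leave a log2 value unchanged. Those alternatives could therefore not turn a direction. For the 62 list members not called, 10 of 1116 values gained a call, and 49 turned sign, all for genes whose change was at most 0.21 in log2 size. All 20 of the leading rises kept their calls under every alternative run. Among the leading falls AT1G62510 and AT4G12490 lost theirs with all 24 arrays in 1 fit (adjusted p = 0.172 and 0.536), and AT4G34320 with only the 6 Col root arrays (0.0636). Signal over background cannot be read from centred values.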

Other observations

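On chromosomes 1 to 5 the probe sets with a single named gene numbered 2550, 1464, 1995, 1440 and 2330. Rises there numbered 49, 30, 47, 24 and 51, and falls 57, 39, 48, 31 and 68. The called share was 4.16%, 4.71%, 4.76%, 3.82% and 5.11%, near the 4.51% of all such probe sets, and 1.49% for the 67 of the plastid genome.

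Some called genes lay next to each other in the reference order. Of 3726 pairs of neighbouring genes, each named alone by a probe set, 6 pairs rose together, 7 fell together and 0 were called in opposite directions. Of all probe sets with a single named gene 4.51% were called. Whether neighbours were called together more often than other genes was not tested. The folate gene FOLB1 rose by 2.15 and its neighbour AT3G11760 by 0.50. AT2G43610 and AT2G43620, neighbours in the chitinase family, rose by 1.63 and 0.92, and AT3G47040 and AT3G47050, of the glycosyl hydrolase family, by 1.0 and 0.61. AT5G59530 and AT5G59540, neighbouring genes of the 2-oxoglutarate-dependent dioxygenase family, changed by -0.63 and -0.79. How far probe sets of similar neighbours read each other's transcripts was not tested.

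Among the 20 named genes that rose most, -Fe replicate 2 was the highest array for 14, and among the 20 that fell most it was the lowest for 16. Of the +Fe arrays, replicate 3 was the lowest for 12 of the rises, and replicates 1, 2 and 3 were the highest for 8, 7 and 5 of the falls. The median SD was 0.158 on -Fe and 0.176 on +Fe for the rises, and 0.302 and 0.211 for the falls.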
